A study of Mus musculus with 3 samples.

Results

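The SIX-, EYA- and DACH-family genes encode a network of nuclear proteins that was compared here between *tuft* and wild-type embryonic heads. The 7 genes described are *Six2*, *Six4*, *Eya1*, *Eya2*, *Eya3*, *Eya4* and *Dach1*, which were chosen by symbol from the 24062 gene symbols in the count tables and were all found. RNA was measured in the rostrum (the front of the head) of E9 embryos with 18 to 22 somites, as 1 column of counts per genotype from RNA pooled over 3 biological replicates. The *tuft* embryos were homozygous for a spontaneous nonsense mutation in *Tet1* and were taken for their neural tube defects, and the wild-type embryos were of the 3H1 Balb background strain. The *tuft* allele is carried by every cell of the embryo, and the pools give neither the spread between embryos nor a value for a single one. The sample records name 2 *tuft* samples and 1 wild-type sample, and the single *tuft* column may be either of the former or both.

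SIX-family proteins bind DNA through a homeodomain but activate transcription weakly on their own. EYA proteins do not bind DNA, join SIX-family proteins as co-activators and also carry a phosphatase activity, whereas DACH proteins, relatives of the SKI family, act in the same complexes mainly as co-repressors. In the embryonic head the network is best known for the preplacodal ectoderm, from which the nose, lens, inner ear and cranial sensory ganglia arise, and several of its genes are also used in head mesenchyme, muscle and kidney precursors.

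The EYA genes were lower in *tuft* as a group, whereas *Dach1* was higher and *Six4* was nearly level. *Six2* and *Eya4* had no count in *tuft*, *Eya1* had 10 counts against 428 in wild type, and *Eya2* and *Eya3* were at 0.487 and 0.424 of their wild-type level. *Dach1* was 2.56-fold higher. Each of these values compares 1 library with 1 library and has no replicate check. By the rule given below, 40.0% of all genes tested were called lower and 21.2% higher, so differences of 2-fold or more were common.

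The deposited values are raw counts of reads per gene, which summed to 6433067 in *tuft* and 14251942 in wild type. They were scaled by TMM (a trimmed mean of M-values), after which 1 count in *tuft* stands for the same level as 2.91 counts in wild type. Levels are given as counts per 1000000 of the scaled library total (CPM). Fold changes are *tuft* over wild type with a 95% Clopper-Pearson interval. Without molecular identifiers in the reads, all intervals and limits cover counting error alone. A gene was called lower or higher when its fold change was 0.5 or less, or 2 or more, and the interval did not reach 1. *Tet1* itself was called lower, with 435 counts in wild type and 32 in *tuft*.

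Of the 7 genes, all of which had at least 10 counts in both libraries together, 5 were called lower, 1 was called higher and 1 was not called. Among all 13979 genes with that many counts, 40.0% were called lower and 21.2% were called higher, so that differences of this size were common between these libraries. The median log2 fold change of the 7 genes was -1.24, and that of all genes tested was -0.55. In the *tuft* library, 18.7% of the genes tested had no count. Each gene is therefore set beside genes with a similar wild-type count. In pooled tissue, fewer cells of a type and less RNA per cell cannot be told apart.

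**Figure D1:**
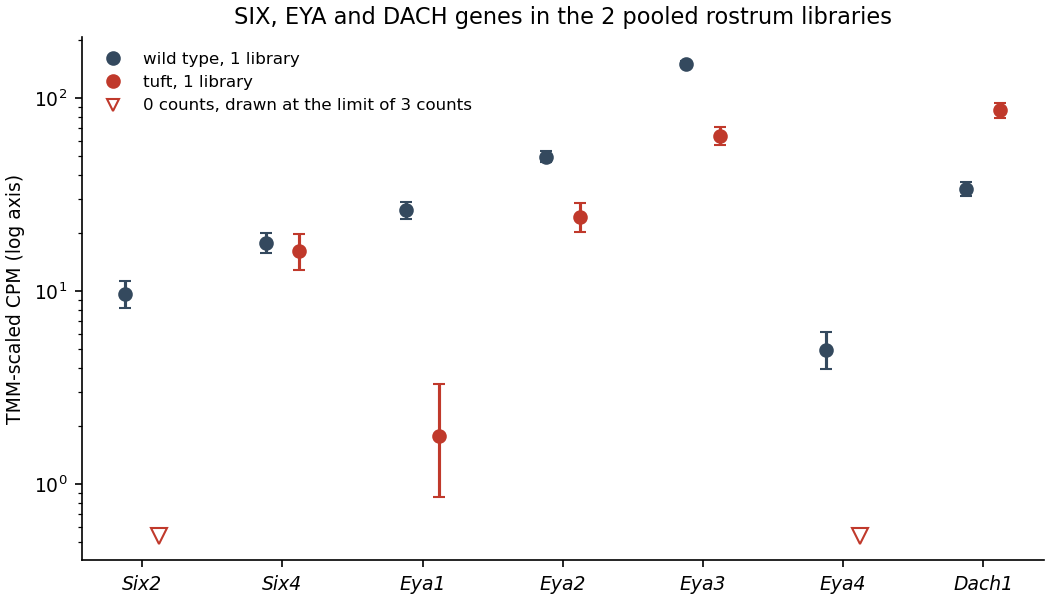
Level of each SIX-, EYA- and DACH-family gene in the wild-type and the *tuft* library, as TMM-scaled CPM on a log axis with exact 95% Poisson intervals for counting error. *Six2* and *Eya4*, with no count in *tuft*, are drawn as open triangles at the limit of 3 counts, and *Dach1* is the one gene whose *tuft* value lies above its wild-type interval.

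*Six2* (chromosome 17 of GRCm38, 85662736 to 85688254) encodes a homeodomain protein that keeps progenitors undifferentiated, best known from the kidney, and is also expressed in head mesenchyme. It had 157 counts in wild type and none in *tuft*, a level of 9.61 CPM (8.16 to 11.2). At an equal level, 53.9 counts would have been found in *tuft*. With the limit of 3 counts set for a count of 0, *Six2* was 18.0-fold lower in *tuft*. By the interval of its fold change, which also covers the wild-type count, it was at least 14.4-fold lower. Of the 2563 genes with 100 to 299 counts in wild type, 43.6% were called lower and 15.9% also had no count in *tuft*.

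*Six4* (chromosome 12, 73099609 to 73114031), a homeodomain gene used in muscle and sensory ganglia, had 291 counts in wild type and 90 in *tuft*. The levels were 17.8 and 16.0 CPM, and the fold change of 0.901 (0.703 to 1.14) was not called. *Six4* was thus the only one of the 7 genes whose interval reached 1. The gene overlaps *Mnat1*, with 599 counts in wild type and 313 in *tuft*, and whether strand was used in counting is not given in the sources used here, so that reads of the pair may not be fully separated.

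*Eya1* (chromosome 1, 14168953 to 14311035) encodes a co-activator needed for the ear, kidney and cranial ganglia. It had 428 counts in wild type and 10 in *tuft*, which are 26.2 CPM (23.8 to 28.8) and 1.78 CPM (0.855 to 3.28). The fold change was 0.0680 (0.0324 to 0.126), a level 14.7-fold lower in *tuft*. The *tuft* library would have held 147 counts at an equal level. Among the 4097 genes with 300 to 999 counts in wild type, 32.9% were called lower, 9.54% had a fold change as low as that of *Eya1* and 3.22% had no count in *tuft*.

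*Eya2* (chromosome 2, 165595028 to 165771727), a co-activator found in placodes, cranial ganglia and muscle precursors, had 813 counts in wild type and 136 in *tuft*. Its fold change of 0.487 (0.403 to 0.585) lay just past the 2-fold limit. With DESeq2's size factors it was 0.503 and *Eya2* was not called, which leaves 4 of the 7 genes called lower. Of the genes with a similar wild-type count, 32.5% were at or below that fold change. *Eya3* (chromosome 4, 132639025 to 132724765) is the broadly expressed gene of the family and the most abundant of the 7 genes in wild type. It had 2461 counts in wild type and 358 in *tuft*, or 151 CPM (145 to 157) and 63.8 CPM (57.4 to 70.8), at a fold change of 0.424 (0.378 to 0.473). Among the 2534 genes with 1000 to 2999 counts in wild type, 27.3% were called lower and 22.4% were at or below the fold change of *Eya3*. Both fold changes are therefore ones that many genes of like abundance shared.

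*Eya4* (chromosome 10, 23102962 to 23350838), known from the ear and the heart, was the scarcest of the 7 genes in wild type, with 81 counts or 4.96 CPM (3.94 to 6.16). It had no count in *tuft*, where 27.8 would have been found at an equal level. The gene was 9.27-fold lower at the limit of 3 counts and at least 7.37-fold lower by its interval. Of the 1963 genes with 30 to 99 counts in wild type, however, 62.6% were called lower and 44.8% had no count in *tuft*, so that a count of 0 was frequent at this abundance.

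*Dach1* (chromosome 14, 97786846 to 98169765), the co-repressor of the network, had 555 counts in wild type and 487 in *tuft* from a *tuft* library of less than 0.5 times the depth. The levels were 34.0 CPM (31.2 to 36.9) and 86.8 CPM (79.3 to 94.9), and the fold change was 2.56 (2.26 to 2.89). In its range of 300 to 999 wild-type counts, 20.2% of genes were called higher and 13.6% had a fold change at least as high. With library totals alone in place of TMM, the fold change was 1.94 and *Dach1* was not called. That scaling moved the median log2 fold change of all genes tested from -0.55 to -0.95. Relative to this median, *Dach1* was higher by 1.91 on the log2 scale and *Six4* by 0.40, whereas *Eya1*, *Eya2* and *Eya3* differed from it by -3.32, -0.48 and -0.68.

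**Figure D2:**
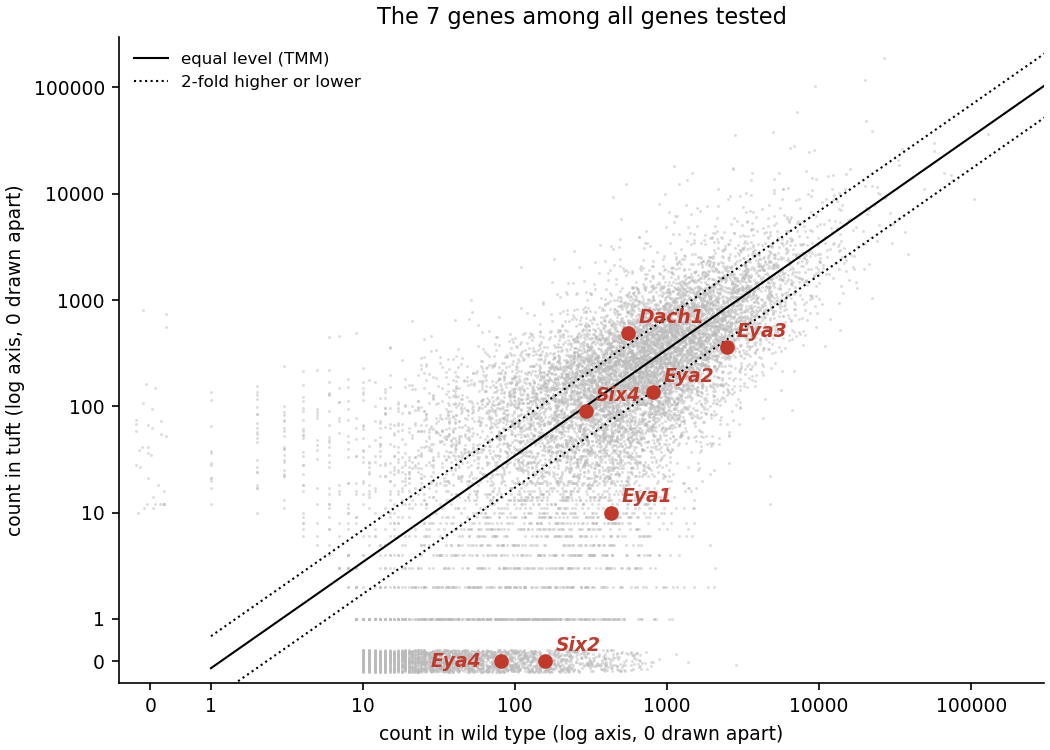
Count of each of the 13979 genes tested in wild type and in *tuft*, both on log axes with 0 drawn apart. The solid line marks equal levels after TMM scaling and the dotted lines mark 2-fold differences. *Six2* and *Eya4* lie in the band of genes with no count in *tuft*, *Eya1* lies far below the lines, *Eya2* and *Eya3* lie at the lower one and *Dach1* lies above the upper one.

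How frequent the individual fold changes were can also be read from the genes that shared them. Of all genes tested, 1353 had a log2 fold change within 0.25 of that of *Six4*, 955 of that of *Eya2*, 839 of that of *Eya3* and 910 of that of *Dach1*. For *Eya1* the number was 185 (1.32%). A window of this kind leaves out genes with no count in *tuft*, and 23.2% of all genes tested were at or below the fold change of *Eya1*. With 2 libraries a pattern is a single ratio, and no gene was singled out as most alike.

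Ratios of counts between genes of the network do not depend on how the libraries are scaled. The ratio of *Dach1* to *Eya3* counts was 0.226 in wild type and 1.36 in *tuft*, a 6.03-fold difference (5.10 to 7.14). *Six4* relative to *Eya3* was 2.13-fold higher in *tuft* (1.62 to 2.78), and *Eya1* relative to *Eya3* was at 0.161 of its wild-type ratio (0.0758 to 0.302). The ratio of *Eya2* to *Eya3* was 0.330 in wild type and 0.380 in *tuft*, a ratio of ratios of 1.15 whose interval (0.922 to 1.43) included 1. The co-repressor and *Six4* were thus higher in *tuft* relative to *Eya3*, *Eya1* was lower relative to it, and no difference was detectable between *Eya2* and *Eya3* at this depth. Over all 21 pairs of the 7 genes, the interval of the ratio of ratios left out 1 for 17. No such count was made over pairs of other genes, so it says little about the network in particular.

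The EYA counts together were 3783 in wild type and 504 in *tuft*, a fold change of 0.388 (0.353 to 0.426). *Eya3* made up 71.0% (66.86 to 74.96) of the EYA counts in *tuft* and 65.1% (63.5 to 66.6) in wild type. The share of *Eya2* was 27.0% (23.2 to 31.1) and 21.5% (20.2 to 22.8). *Eya1* fell from 11.3% (10.3 to 12.4) of the EYA counts in wild type to 1.98% (0.955 to 3.62) in *tuft*, and *Eya4* held 2.14% (1.70 to 2.65) in wild type. The EYA reads of *tuft* thus came almost entirely from *Eya2* and *Eya3*.

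Per length, the order of the 7 genes differed between the libraries. Levels per kilobase of annotated exon, in CPM per kilobase, were highest for *Eya3* in wild type (26.7), followed by *Eya2* (18.2), *Eya1* (5.99), *Dach1* (4.64), *Six2* (4.56), *Six4* (3.17) and *Eya4* (1.18). The intervals of *Dach1* and *Six2* overlapped and those of the other neighbours in this order did not. In *tuft*, *Dach1* (11.9), *Eya3* (11.3) and *Eya2* (8.88) led, the intervals overlapping between *Dach1* and *Eya3* and between *Eya3* and *Eya2*. *Six4* (2.85) and *Eya1* (0.408) followed. *Six2* and *Eya4* had no count in *tuft*, where the limit of 3 counts is 0.254 and 0.128 CPM per kilobase, below the interval of *Six4*. *Dach1*, well below *Eya3* in wild type, was thus level with *Eya3* in *tuft*.

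TET1 oxidizes methylated cytosine, which in mammalian DNA lies mainly in CG pairs, so the start sites of the genes are shown with their CG pairs. RefSeq windows of 300 bases on GRCm38.p6, 250 before and 50 after an annotated start, were at hand for 5 of the 7 genes, not for *Eya1* and *Eya2*. The sequences are given for the genes with no *tuft* count, for the gene most abundant in wild type and for the one that was higher, 5′ to 3′ on the strand of the gene, with each CG in capitals:
*Six2*, chr17:85688205-85688504, minus strand: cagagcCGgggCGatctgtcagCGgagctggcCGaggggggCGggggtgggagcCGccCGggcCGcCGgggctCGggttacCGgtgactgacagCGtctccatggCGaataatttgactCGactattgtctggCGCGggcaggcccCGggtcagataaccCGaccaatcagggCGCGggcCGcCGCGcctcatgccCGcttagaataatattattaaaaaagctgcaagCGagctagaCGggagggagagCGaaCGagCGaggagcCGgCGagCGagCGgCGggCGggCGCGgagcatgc
*Eya4*, chr10:23349894-23350193, minus strand: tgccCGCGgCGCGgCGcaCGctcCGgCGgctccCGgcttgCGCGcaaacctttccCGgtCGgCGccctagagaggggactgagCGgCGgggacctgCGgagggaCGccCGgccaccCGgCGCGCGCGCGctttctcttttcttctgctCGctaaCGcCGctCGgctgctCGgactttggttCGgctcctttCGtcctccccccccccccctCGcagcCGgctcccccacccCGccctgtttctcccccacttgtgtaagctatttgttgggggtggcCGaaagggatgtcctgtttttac
*Eya3*, chr4:132638796-132639095, plus strand: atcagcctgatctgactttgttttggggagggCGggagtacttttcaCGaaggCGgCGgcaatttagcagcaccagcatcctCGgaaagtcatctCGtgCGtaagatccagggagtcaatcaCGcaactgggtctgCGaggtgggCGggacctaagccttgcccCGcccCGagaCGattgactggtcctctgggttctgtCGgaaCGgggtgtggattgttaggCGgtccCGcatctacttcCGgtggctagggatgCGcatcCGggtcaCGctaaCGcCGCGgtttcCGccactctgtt
*Dach1*, chr14:98169716-98170015, minus strand: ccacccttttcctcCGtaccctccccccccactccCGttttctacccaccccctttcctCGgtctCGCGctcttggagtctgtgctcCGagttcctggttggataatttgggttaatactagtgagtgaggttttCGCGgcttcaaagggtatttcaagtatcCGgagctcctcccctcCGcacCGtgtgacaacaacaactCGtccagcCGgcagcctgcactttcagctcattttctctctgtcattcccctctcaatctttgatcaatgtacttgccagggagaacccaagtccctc

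The *Six2* window holds 37 CG pairs and that of *Eya4* 36, with 28 in a second, overlapping *Eya4* window. The *Eya3* window holds 25, the *Six4* windows hold 16 and 15 and that of *Dach1* 13. The median over all 32851 windows was 7, and the quartiles were 3 and 20, so that all windows of the network were above the median. Among their relatives, *Ski* had 59 CG pairs with a fold change of 0.831, and *Six3* had 14. No methylation was measured in these libraries, and no relation of CG content to the fold changes was tested. The letters TCAGGTT, the core of the MEF3 site to which SIX-family proteins bind, were searched on both strands. They occur in 4.07% of all windows and in 1 of the 7 windows of the network. That match begins at base 154 of the *Six4* window chr12:73113196-73113495, on the opposite strand, shown with 15 bases on either side and the match in capitals:
*Six4*, minus strand: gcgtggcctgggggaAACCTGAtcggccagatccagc

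Relatives in the SIX-, DACH- and SKI-type families were called in both directions. *Six3*, a regulator of forebrain and eye, had 958 counts in wild type and 1361 in *tuft* and was called higher, 4.14-fold (3.81 to 4.50). *Six6*, which acts in eye and pituitary, had a fold change of 1.94 (1.710 to 2.202) and *Six5* one of 1.09 (0.933 to 1.28), and neither was called. With library totals alone *Six5* was on the other side, at 0.832, and with DESeq2's size factors *Six6* was called at 2.01. With TMM, 1 of the 5 SIX-family genes described, *Six3*, was therefore called higher and 1, *Six2*, was called lower. These are 20% in each direction, against 21.2% of all genes tested called higher and 40.0% called lower.

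*Dach2*, the second DACH gene, had 43 counts in wild type and none in *tuft*. It was 4.92-fold lower at the limit of 3 counts and at least 3.83-fold lower by its interval. As for *Eya4*, 44.8% of the genes in its range of wild-type counts also had no count in *tuft*. *Skil*, a SKI co-repressor, was called lower with a fold change of 0.170 (0.110 to 0.253), from 445 counts in wild type and 26 in *tuft*. *Ski* was at 0.831 (0.760 to 0.907) and was not called. Of these 6 relatives, 2 (33.3%) were called lower and 1 (16.7%) higher, shares near the 40.0% and 21.2% of all genes tested, and their median log2 fold change was -0.07.

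**Figure D3:**
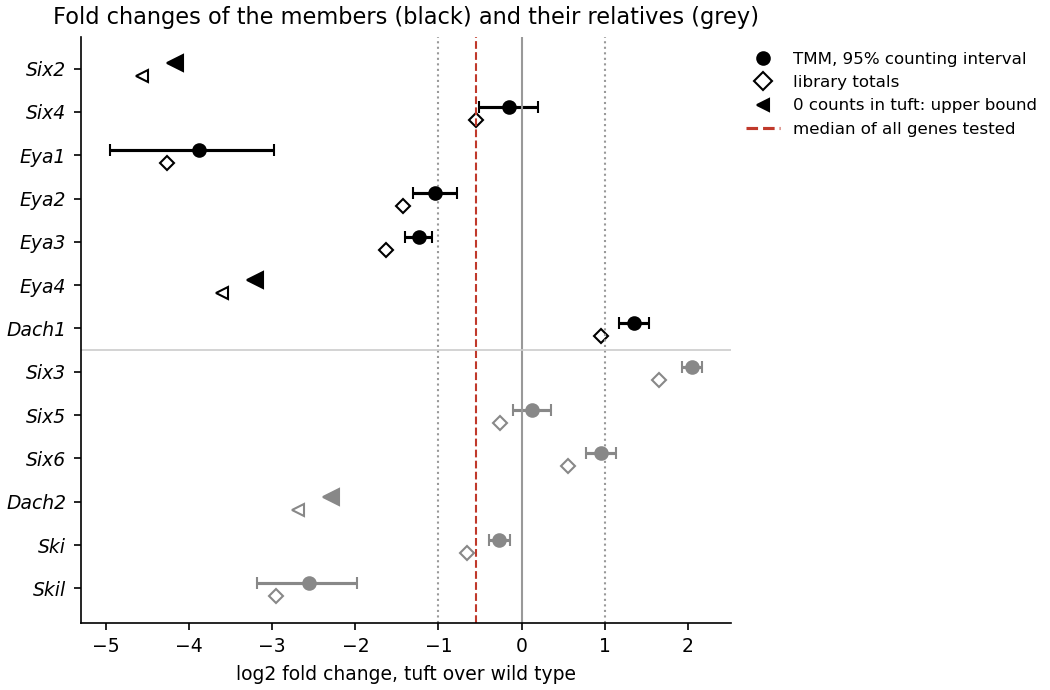
Log2 fold changes of the 7 genes (black) and of their relatives (grey) with TMM scaling and 95% counting intervals, and with library totals alone (open diamonds). Genes with no count in *tuft* are drawn as triangles at their upper bound, the dotted lines mark 2-fold differences and the dashed line marks the median of all genes tested, -0.55. The 4 EYA genes lie left of that median, while *Dach1* and *Six3* lie to the right of 0 with either scaling.

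*Six2* lies beside another SIX-family gene with a different value, a comparison made after these values had been seen. *Six3* and *Six2* are 36.5 kb apart on chromosome 17, and the ratio of *Six3* to *Six2* counts was 6.10 in wild type. In *tuft* there were 1361 *Six3* counts and none of *Six2*. This ratio was 74.3-fold higher with *Six2* at the limit of 3 counts, and at least 59.5-fold higher by its interval. These neighbouring genes thus differed in these libraries whatever the scaling. *Six3* overlaps the antisense gene *Six3os1*, which had 1920 counts in wild type and 583 in *tuft*.

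Among 9 nuclear partners of SIX-family and DACH proteins, 1 (11.1%) was called lower and 4 (44.4%) were called higher, against 40.0% and 21.2% of all genes tested. Their median log2 fold change was 0.63. *Ncor1*, a co-repressor scaffold, was lower at 0.409 (0.363 to 0.460). *Tle2*, one of the Groucho-type co-repressors that SIX-family proteins recruit, was highest at 18.8 (12.7 to 28.8), from 29 counts in wild type and 187 in *tuft*. *Sobp*, *Sin3a* and *Hdac3* were the other genes called higher, and with library totals alone *Sin3a* was not called.

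Transcription factors of the preplacodal ectoderm and of single placodes differed in both directions. Of 21 genes, 18 had enough counts, 4 (22.2%) were called lower and 5 (27.8%) higher, and the median log2 fold change was -0.02. *Pax2*, a marker of the ear placode, had 132 counts in wild type and none in *tuft*. By the interval of its fold change, *Pax2* was at least 12.1-fold lower. Of the genes with 100 to 299 counts in wild type, 15.9% also had no count in *tuft*. *Gata3*, found in the ear and the surface ectoderm, was highest at 5.01 (3.62 to 6.99), from 61 counts in wild type and 105 in *tuft*. The others called lower were *Dlx3*, *Dlx6* and *Pax3*, and the others called higher were *Dlx5*, *Foxi2*, *Tfap2c* and *Pax8*. With library totals alone, 7 were called lower and 4 higher, as were 48.4% and 15.8% of all genes tested. With TMM, 40.0% of all genes tested were called lower and 21.2% higher, with a median of -0.55. Calls in both directions were thus present in this list as among all genes.

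Neurogenic factors of the placodes were scarce, with sums of 178 counts in wild type and 31 in *tuft* over 8 genes. Of the 4 with enough counts, *Isl1*, a factor of sensory neurons, was called lower at 0.416 (0.199 to 0.787), from 77 counts in wild type and 11 in *tuft*. *Pou4f1*, another sensory neuron factor, had 33 counts in wild type and none in *tuft*. It was 3.78-fold lower at the limit of 3 counts and at least 2.90-fold lower by its interval. The median log2 fold change of the 4 genes was -0.99. Both *Isl1* and *Pou4f1* are in the range of 30 to 99 wild-type counts, where 62.6% of genes were called lower and 44.8% had no count in *tuft*, so that such values were usual at this abundance.

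Of 10 genes known as targets of SIX-family and EYA proteins, 9 had enough counts, 4 (44.4%) were called lower and 1 (11.1%) higher. The share called lower was near the 40.0% of all genes tested, so that the count says little about these genes. Their median log2 fold change was -1.06, against -0.55 over all genes tested. It was -0.81 with counts of 3 or fewer set to 3. *Slc12a2*, a chloride transporter, *Ezr*, a linker of membrane and actin, and the ligand genes *Gdnf* and *Fgf10* were called lower. *Fgf10* had 40 counts in wild type and none in *tuft*. It was 4.58-fold lower at the limit of 3 counts and at least 3.55-fold lower by its interval. In its range of 30 to 99 wild-type counts, 62.6% of genes were called lower and 44.8% had no count in *tuft*. *Gdnf*, with 18 counts in wild type and none in *tuft*, was at least 1.51-fold lower by its interval. The ligand gene *Fgf8* was called higher at 3.33 (2.81 to 3.95). With library totals alone, 6 were called lower, as were 48.4% of all genes tested. *Ccnd1* and *Myc* had fold changes of 1.17 and 1.13 and were not called.

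**Figure D4:**
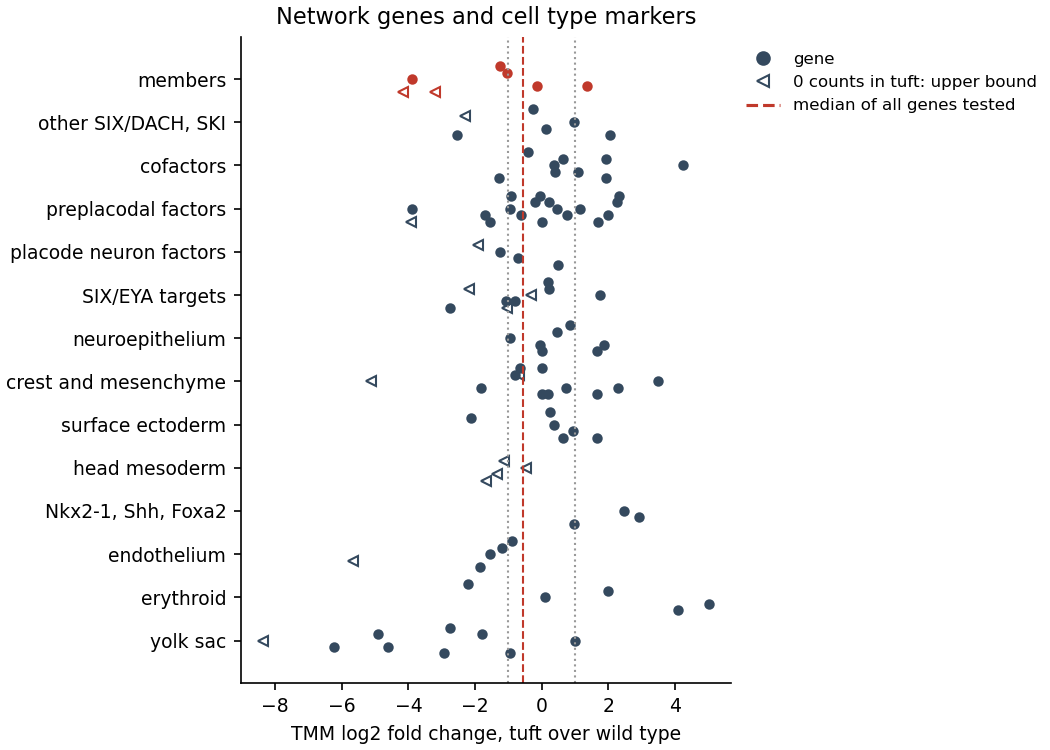
TMM log2 fold change of every gene with enough counts in the lists of the network and of cell type markers, 1 point per gene. Open triangles are genes with no count in *tuft*, drawn at their upper bound, the dotted lines mark 2-fold differences and the dashed line marks the median of all genes tested, -0.55. Among the SIX-, EYA- and DACH-family genes (top, in red), those with counts in both libraries spread from an *Eya1* value of -3.88 to a *Dach1* value of 1.35. The yolk sac and endothelium markers lie mostly to the left.

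The summed level of 7 neuroepithelium genes was 1021 CPM in *tuft* and 746 in wild type, with 2 called higher, *Hes5* the highest at 3.65-fold, and *Pax6* the lowest at 0.514. It was 1054 and 626 CPM for 6 surface ectoderm genes, of which *Krt8* was higher and *Cdh1* lower (3.14 and 0.229), and 896 and 493 CPM for 12 crest and mesenchyme genes, with 3 called in either direction, from *Sox10* at 11.1 down to *Prrx2* with 301 counts in wild type and none in *tuft*. *Sox2*, *Pax6* and *Otx2* are also among the placode factors above. Most of these genes were detected in both libraries, whereas *Prrx2* and *Foxd3* had no count in *tuft*. The 6 head mesoderm genes were scarce, with 89 counts in all in wild type and none in *tuft*, and 3 of the 4 with enough counts were called lower. Each had fewer than 30 counts in wild type, and 62.6% of genes with 30 to 99 were called lower. Of all genes tested, 40.0% were called lower and 21.2% higher.

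Other tissues differed too, against 40.0% of all genes tested called lower and 21.2% called higher. Of 9 yolk sac genes 7 were called lower and 1, *Amn*, higher at 2.01, though not with library totals or the upper quartile (sums of 325 CPM in *tuft* and 1846 in wild type, with *Apoa4* at 2856 counts in wild type and none in *tuft*). Of 5 endothelium genes 4 were called lower (77.3 and 242 CPM), *Pecam1* with 443 counts in wild type and none in *tuft*, and *Tie1* the highest at 0.540. Of 5 erythroid genes with enough counts 3 were called higher, from *Hbb-y* at 32.4 down to *Alas2* at 0.215 (40728 and 2784 CPM in all). Of 5 genes listed for pharyngeal endoderm, *Pax1* and *Pax9*, which define it, were near 0 in both libraries, with 0 and 4 counts in wild type and 1 and 0 in *tuft*. The other 3 genes, *Nkx2-1*, *Shh* and *Foxa2*, are therefore described by name. *Nkx2-1* and *Shh* were called higher, at 7.56 and 5.52, and *Foxa2* was at 1.96 and was not called. The part of these tissues in the values of the SIX-, EYA- and DACH-family genes was not tested.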

How the data were processed

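RNA of E9 rostrums was pooled per genotype, sequenced and deposited as 1 column of counts per genotype. The authors deposited raw counts per gene symbol, made by trimming single-end Ion Proton reads of poly-A RNA with PRINSEQ, aligning them to mm10 with TopHat 2.0.14 and Bowtie2 2.2.5 and counting them with htseq-count. Its version, strand setting and gene models are not given in the sources used here. The 5 summary lines at the end of each column were left out. Gene counts made up 37.3% of the wild-type entries and 27.4% of those of *tuft*.

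A single library per genotype leaves no degrees of freedom for edgeR. No p-value is given, and NOISeq-sim, the program of the study, was not run because its noise comes from simulated libraries. TMM factors (*tuft* relative to wild type 0.761) came from edgeR 4.0.16 in R 4.3.3, and intervals from scipy 1.17.1 in Python 3.11.15. The intervals were checked on simulated Poisson counts, which carry counting error alone, so that check does not bear on any other spread in these libraries. Genes whose 2 counts summed to 10 or more were tested, and a count of 0 was given a limit of 3 counts per library. Exon lengths are unions over the transcripts of GENCODE M1 (NCBIM37). Positions and windows are from RefSeq on GRCm38.p6, where 22550 of the symbols were found.

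The genes and lists were chosen with earlier results of these data known. Named genes are the 7 genes, *Tet1*, the relatives and the highest and lowest gene of each list with at least 30 counts in a library. Others were named after their values were seen. Some genes of the lists are not reported here and are not counted in them.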

Additional observations from a re-analysis of the deposited data

How the results depend on the processing

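No paired analysis was possible because each genotype has 1 column of counts, and for the same reason no replicate could be left out. Scaling was repeated with DESeq2's size factors (DESeq2 1.42.0), with the upper quartile, with library totals alone and with TMM without *Rn45s* and the globin genes. Low counts were left unfiltered or filtered at 1 CPM in either library, and calls were repeated at 1.5-fold, at 4-fold, by fold alone and with a 99% interval. In all, 74 values were recomputed for the 7 genes and for the counts of calls over all genes. Of these, 65 moved by less than the counting interval or, for counts of genes, by less than 1.5 times. None of the fold changes or medians among them reversed direction, which counts of genes cannot do. All 7 genes passed each filter, and the filters did not alter the scaling. Their median and their calls therefore could not move with the filtering. With library totals alone, 0 of the 7 genes were called higher, since *Dach1* fell to a log2 fold change of 0.96, and their median log2 fold change was -1.63. That scaling also moved *Six4* to -0.55, *Eya2* to -1.43 and *Eya3* to -1.63, and 75.4% of the genes called were lower, against 65.3% with TMM. With DESeq2's size factors 4 were called lower, as *Eya2* was at a fold change of 0.503. At 4-fold, 3 genes, *Six2*, *Eya1* and *Eya4*, were called lower and 0 higher. Of all genes tested, 29.5% were called lower at 4-fold and 1286 (9.20%) higher, against 2966 higher at 2-fold. Depth limits *Six2* and *Eya4* to bounds.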
